A study of Gallus gallus with 14 samples.

Results

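Transcript levels of 6 genes of lipid droplet lipolysis were described in 14 chick retinas: G0S2, PNPLA2, ABHD5, PLIN2, PLIN3 and MGLL. They were taken by gene symbol from a deposited table of 18631 genes, and all 6 were listed. G0S2 was picked because its level differed between lens and control retinas in these same data, and the others were named as its partners with results already known. For these 6 genes the lens and control values are therefore a description and carry no p-value. The retinas came from wild type White Leghorn chicks and were labelled control (7 retinas) or lens-induced myopia (7 retinas, called lens below). Lenses of -10 D were placed in front of the eye at the age of 3 days, and tissue was collected after 6 days. The labels give neither the sex of the chicks nor the treatment of the other eye, and do not say that each retina came from a different bird. Spread and p-values therefore refer to these 14 samples.

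Lipid droplets are stores of neutral fat wrapped in a single layer of phospholipid and coated by perilipins. In mammals, triglyceride is cut in steps. PNPLA2 (adipose triglyceride lipase, ATGL) removes the first fatty acid, hormone-sensitive lipase LIPE acts on diacylglycerol, and MGLL releases the last fatty acid from monoacylglycerol. ABHD5 (CGI-58) binds PNPLA2 and activates it, while G0S2 binds the same lipase and inhibits it. PLIN2 is the droplet coat of most cells outside fat tissue, and PLIN3 moves between cytosol and droplet surface. In neural tissue MGLL also breaks down the endocannabinoid 2-arachidonoylglycerol.

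Values are in CPM, the reads of a gene per 1 M reads of its library, and came from total RNA after ribosomal RNA depletion. Libraries held 32.3 to 42.6 M reads in total, taking the commonest low value in each column as 1 read. The listed genes held 32.9% to 34.2% of the scaling total in control libraries (mean 33.4%) and 31.7% to 33.3% in lens libraries (mean 32.6%). In 3 libraries (control 65, lens 48 and lens 55) the summed W-linked level was 2.2 to 4.56 CPM, against 616 to 721 CPM in the other 11. All values are for whole retina, so fewer cells of a type and less RNA per cell cannot be told apart. Photoreceptor markers were present, with summed levels of 2009 to 2335 CPM in control and 1848 to 2409 CPM in lens libraries, and 1 of their 13 tested members was called higher and 3 lower in lens retinas (2.76% of all tested genes were called). The part of these changes in the results below was not tested. Of 6 listed adipocyte markers, 4 were near 0 and 2 passed the filter of the test. ADIPOQ, the adipocyte hormone adiponectin, reached at most 0.141 CPM in any library, the coat gene PLIN1 at most 0.0565 CPM, CIDEC at most 0.117 CPM and PPARG at most 0.249 CPM. LPL, a secreted lipase, had a mean of 1.10 CPM in control and 1.15 CPM in lens libraries, and LEPR, the leptin receptor, 1.65 CPM and 1.80 CPM.

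G0S2, the inhibitor, was about 2-fold higher in lens retinas, while the lipase that it inhibits, its co-activator and the droplet coat gene PLIN2 showed no change of that size. G0S2 (chromosome 26, 3140579 to 3141465, plus strand, build GRCg6a) ranged in control from 5.8 CPM in retina 59 to 12.6 CPM in retina 57, with a median of 9.2 CPM. In lens retinas it ranged from 14.3 CPM in retina 46 to 25.4 CPM in retina 53, with a median of 18.4 CPM. The groups did not overlap, since the lowest lens retina lay above the highest control. Its mean was 9.52 CPM ± 2.26 (SD, n = 7) for controls and 18.7 CPM ± 3.69 (SD, n = 7) for lens retinas, a ratio of 1.97. On the log2(CPM + 1) scale the difference was 0.92 ± 0.14 (SE), with an unadjusted 95% interval of 0.63 to 1.21. That difference was the third largest of the 102 rises past the threshold, which is how the gene was chosen. The interval takes no account of this choice, so it is a description and not a test.

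**Figure D1:**
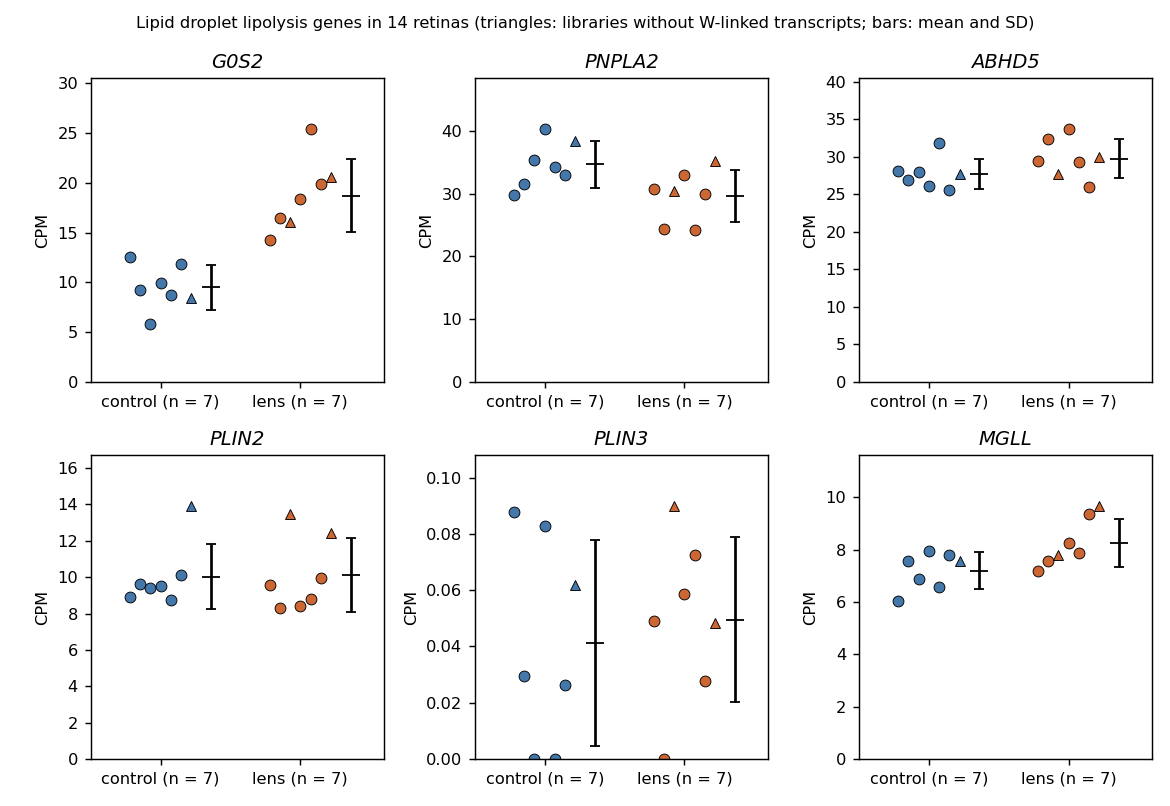
CPM (y axis, from 0) of the 6 genes in each control (blue) and lens (orange) retina, with the mean and SD of 7 retinas beside the points. G0S2 separates the groups (at most 12.6 CPM in control, at least 14.3 CPM in lens), PLIN2 is highest in the 3 libraries without W-linked transcripts (triangles), and PLIN3 lies under 0.1 CPM.

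G0S2 was measured with enough reads for counting error to be small. Each control library held 210 to 451 reads of G0S2 and each lens library 584 to 1052. Counting alone would give a coefficient of variation of 5.6% in control and 3.78% in lens retinas, whereas the observed values were 23.7% and 19.7%. G0S2 therefore varied more between retinas of the same group than counting gives, and more in relative terms than PNPLA2 (10.7% and 13.9%), ABHD5 (7.28% and 8.82%) or MGLL (9.87% and 11.2%). PLIN2 had 17.7% in control retinas and a value just above that of G0S2 in lens retinas.

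PNPLA2, the lipase (chromosome 5, 15960938 to 15987046), measured 29.7 to 40.3 CPM in control, with a median of 34.3 CPM. In lens retinas it measured 24.2 to 35.2 CPM, with a median of 30.4 CPM. Lens retinas 47 and 53 lay below every control and the other 5 lay within the control range. The means were 34.6 CPM ± 3.72 (SD, n = 7) and 29.7 CPM ± 4.14 (SD, n = 7), a log2 difference of -0.22 ± 0.085 (SE) with an unadjusted 95% interval of -0.40 to -0.04. PNPLA2 was not among the called genes.

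ABHD5, the co-activator (chromosome 2, 40792849 to 40822456), measured 25.6 to 31.8 CPM in control and 25.96 to 33.7 CPM in lens retinas, with medians of 27.8 and 29.5 CPM. Lens retinas 47 and 51 lay above every control, and the ranges otherwise overlapped. The log2 difference was 0.10 ± 0.059 (SE), with an unadjusted 95% interval of -0.03 to 0.22, and the gene was not called.

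MGLL, which acts last (chromosome 12, 9973854 to 10066082), measured 6.05 to 7.97 CPM in control and 7.2 to 9.67 CPM in lens retinas, with medians of 7.58 and 7.88 CPM. Lens retinas 51, 54 and 55 lay above every control. The log2 difference was 0.17 ± 0.075 (SE), with an unadjusted 95% interval of 0.01 to 0.33, and the gene was not called. MGLL shares its locus with KBTBD12, an opposite-strand gene at 0.678 CPM (control) and 0.872 CPM (lens), and no source used here states how strand was treated in counting.

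Of the perilipins, PLIN2 passed the filter of the test and PLIN3 did not. PLIN2 (chromosome Z, 33602922 to 33617087) measured 8.73 to 13.9 CPM in control and 8.31 to 13.5 CPM in lens retinas, with medians of 9.54 and 9.58 CPM. Its log2 difference was 0.01 ± 0.11 (SE), with an interval of -0.23 to 0.24. PLIN3 (chromosome 28, 4948476 to 4961107) was at the edge of detection, with 0 to 3.39 estimated reads in any library. Whether its gene model in the annotation used is complete was not tested, so these reads do not show that the transcript was absent. PLIN3 also overlaps TICAM1, a same-strand gene at 1.77 CPM (control) and 1.35 CPM (lens), and how shared reads were counted is not given. PLIN3 had too few reads to compare the groups. The gene was listed at 0 in control retinas 59 and 63 and in lens retina 47, and its highest value was 0.0899 CPM. A limit of 3 reads is 0.0705 to 0.0928 CPM at these depths, so no fold is given. PLIN3 failed the filter of 1 CPM in at least 7 samples and was not tested.

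Of the 5 members that passed the filter, 1 was called higher and 0 lower in limma at an adjusted p under 0.05, where 2.76% of all 11132 tested genes were called, 0.916% as higher and 1.84% as lower. The values of 1 member, G0S2, did not overlap between groups, as for 1.53% of tested genes, 0.557% with every lens retina above every control. The member counts repeat what chose the genes. The split of all calls between directions depended on scaling, with 33.2% of calls higher for the deposited scaling and 55.4% once trimmed-mean (TMM) factors were applied. With 4 other scalings the median log2 difference of all genes moved from -0.0378 to between -0.0089 and -0.0007. Scaling to a common sum over the listed genes, which makes their share equal between libraries, gave the -0.0089.

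Within each retina, the ratio of G0S2 to its target lipase does not depend on the scaling of the library. CPM are not corrected for gene length, so these ratios are compared between retinas and not read as relative amounts of the transcripts. The ratio of G0S2 to PNPLA2 ranged from 0.164 to 0.423 in control retinas, with a median of 0.255. In lens retinas it ranged from 0.466 to 1.05, with a median of 0.584. All 7 lens retinas lay above every control, with lens retina 53 the highest and lens retina 46 the closest to the controls. G0S2 was picked for its difference between the groups and alone separates them, so its ratios repeat that difference and are a description. On the log2 scale the ratio averaged -1.89 ± 0.45 (SD, n = 7) for controls and -0.68 ± 0.38 (SD, n = 7) in lens retinas, a difference of 1.22. The ratio of G0S2 to ABHD5 was also above every control in 7 of 7 lens retinas, with a log2 difference of 0.89. For G0S2 to MGLL 5 of 7 lens retinas lay above every control and the log2 difference was 0.80.

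**Figure D2:**
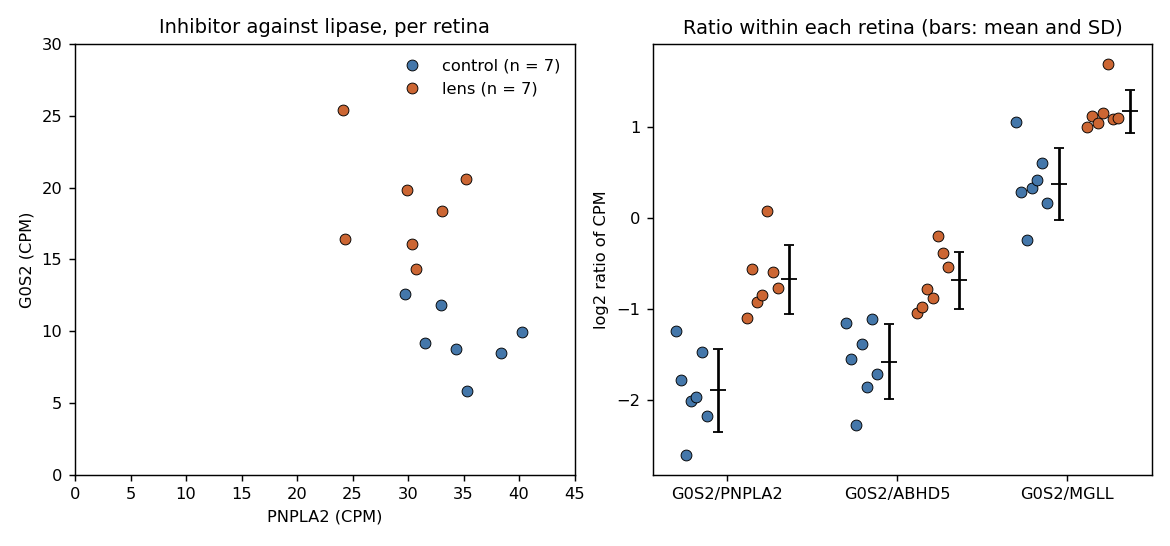
Left, G0S2 against PNPLA2 in CPM for each retina; right, log2 ratio of G0S2 to PNPLA2, ABHD5 and MGLL within each retina, with mean and SD (n = 7). The control and lens points do not overlap for the ratios to PNPLA2 and ABHD5, while for MGLL control retina 57 lies among the lens retinas.

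PLIN2 was higher in the libraries that lacked W-linked transcripts. In birds females carry a Z and a W chromosome and males carry a pair of Z chromosomes, and dosage compensation of Z genes is incomplete. PLIN2 lies on Z. In the 11 libraries with W-linked transcripts PLIN2 measured 8.31 to 10.1 CPM, with a mean of 9.21 CPM ± 0.612 (SD). In the 3 libraries without them it measured 13.9 CPM (control 65), 13.5 CPM (lens 48) and 12.4 CPM (lens 55), with a mean of 13.3 CPM ± 0.773 (SD). All 3 lay above every one of the 11. In limma with treatment group in the model, PLIN2 was higher in the 3 libraries by a log2 difference of 0.50 ± 0.071 (SE, adjusted p = 8.08e-05), a fold of 1.41. An exact two-sided permutation within groups gave p = 0.00680, the smallest that its 147 assignments allow.

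The size of the PLIN2 difference was ordinary for a Z-linked gene. Of 554 tested Z-linked genes, 345 (62.3%) were called higher in the libraries without W-linked transcripts and 15 lower, with a median log2 difference of 0.42 and quartiles of 0.19 and 0.61. PLIN2 exceeded 58.8% of them. Over all tested genes 3.76% were called in this contrast, 3.14% as higher in the libraries without W-linked transcripts, and of 10542 autosomal genes 5 were called higher and 24 lower. Among the libraries with W-linked transcripts, control retinas had 9.38 CPM ± 0.514 of PLIN2 (SD, n = 6) and lens retinas 9.01 CPM ± 0.717 (SD, n = 5). The 4 other tested members, all autosomal, were not called in the W-linked contrast. G0S2 differed by -0.07 ± 0.17 (SE, adjusted p = 0.951), PNPLA2 by 0.20 ± 0.094 (SE, adjusted p = 0.496), ABHD5 by -0.03 ± 0.073 (SE, adjusted p = 0.940) and MGLL by 0.09 ± 0.092 (SE, adjusted p = 0.838) in limma.

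**Figure D3:**
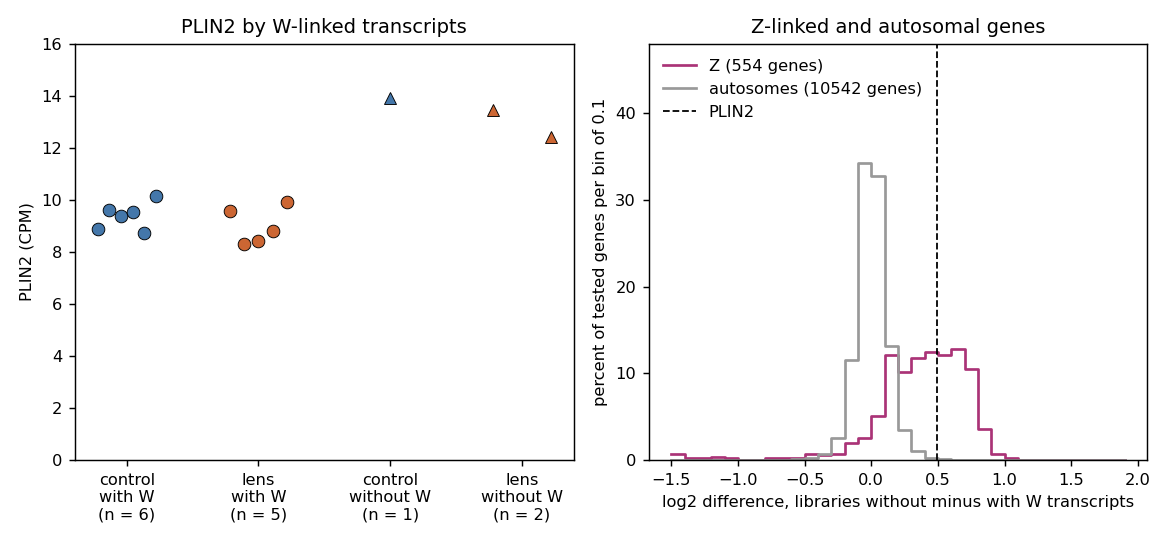
Left, PLIN2 in CPM by treatment group and by presence of W-linked transcripts, 1 point per retina; right, distribution of log2 differences (libraries without minus with W-linked transcripts) for 554 Z-linked and 10542 autosomal genes, in bins of 0.1 with values past the ends of the axis placed in the end bins. The 3 libraries without W-linked transcripts lie above the other 11, and the dashed line for PLIN2 falls within the Z-linked genes, past their median of 0.42.

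The letter L or R in the sample titles, which the labels do not explain, gave no call for the 5 tested members in limma (adjusted p = 0.9998 for each). None of the 11132 tested genes, 0%, was called by the letter, and 355 had an unadjusted p under 0.05.

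Among themselves, no pair of members was called for common variation once the group means were removed. Over 14 retinas, 0 of the 15 pairs (10 of them without PLIN3) passed a two-sided permutation test within groups after adjustment over the pairs. With 14 retinas this does not show that the members vary independently. The smallest permutation p was that for ABHD5 and PLIN2 by rank (rho = -0.64, permutation p = 0.0223, adjusted p = 0.334). Their Pearson correlation was weaker (r = -0.42, permutation p = 0.163, adjusted p = 0.419). The highest correlation was between PNPLA2 and MGLL (r = 0.54, permutation p = 0.0592, adjusted p = 0.419; rho = 0.42, permutation p = 0.164, adjusted p = 0.491), and it was 0.52 without the 2 retinas farthest from the median of PNPLA2. G0S2 and PNPLA2 had r = -0.30 (permutation p = 0.305, adjusted p = 0.508) and rho = -0.24 (permutation p = 0.424, adjusted p = 0.644), with r = -0.13 without the 2 farthest retinas.

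Pairs with PLIN2 were read among the 11 libraries with W-linked transcripts, because PLIN2 splits the retinas into separate clusters. There ABHD5 and PLIN2 ran opposite to each other, with r = -0.88 (permutation p = 0.00114, adjusted p = 0.0171) and rho = -0.89 (permutation p = 0.000820, adjusted p = 0.0123), and r = -0.86 without the 2 farthest. The call was lost with each of the 4 other scalings, where r was -0.75 to -0.72 and the adjusted permutation p 0.288 to 0.416. PLIN2 varied by 6.65% between these 11 libraries, without centring on group, and counting alone gives 5.42%. Counting error is therefore a large part of its spread. No other pair passed among the 11 libraries as deposited.

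The genes whose variation within groups was most like that of G0S2 were CHCHD6 (r = 0.85), a mitochondrial cristae protein, RNF41 (r = 0.85), a ubiquitin ligase, SMIM7 (r = 0.84), a small membrane protein, ORC4 (r = 0.83), a subunit of the origin recognition complex, and STARD10 (r = 0.83), a phospholipid transfer protein. These are the highest Pearson correlations over 14 retinas among 11131 genes, restricted to genes with a symbol and a positive r within each group, and carry no test. They were computed with the deposited scaling only and not repeated with others. For G0S2 and PNPLA2, r moved from -0.30 as deposited to -0.44 with median-of-ratios factors. None of the 5 most correlated genes was called between lens and control retinas. CHCHD6, for example, stood at a mean of 10.1 CPM in controls against 9.24 CPM under the lens.

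Genes that lie near G0S2 on chromosome 26 are given with their distance from it. LAMB3, 3.94 kb away, and HSD11B1b, 9.86 kb away, reached at most 0.216 and 0.0295 CPM in any library. CAMK1G, 26.1 kb away, stood at 14.1 CPM ± 1.86 (SD, n = 7) in controls against 13.2 CPM ± 1.76 (SD, n = 7) under the lens (limma adjusted p = 0.680). PLXNA2, 39.2 kb away on that side, had a log2 difference of -0.20 ± 0.093 (SE, limma adjusted p = 0.290). On the other side GUCA1B, a guanylate cyclase activator 36.4 kb away, rose by a log2 difference of 0.33 ± 0.057 (SE, limma adjusted p = 0.00303), from 33.8 to 42.6 CPM. GUCA1A, 43.4 kb away, had -0.19 ± 0.13 (SE, limma adjusted p = 0.524). LAMB3 and HSD11B1b did not pass the filter. No listed gene overlaps G0S2.

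Around the members, 4 genes of fatty acid activation, elongation and esterification were called higher in lens retinas, and 1 oxidation gene lower. The share of pathway genes called was near that of all tested genes. The 7 pathway lists, chosen by function, held 183 gene symbols, some of them second names of the same gene. Of these symbols 157 were listed and 126 tested, of which 4 were higher and 1 lower (3.97%, beside 2.76% of all tested genes). Of the 126 tested, 32 had an unadjusted p under 0.05, a larger share than the 1796 (16.1%) of all 11132 tested genes. Whether that share exceeds chance was not tested. In the lists below, counts of unadjusted p stand against the 16.1% of all tested genes, and counts of called genes against the 2.76%. The median log2 difference of the pathway genes was -0.0377, beside -0.0378 for all tested genes. With quantile normalization 7 pathway genes were higher.

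Synthesis of triglyceride and sterol esters had 3 of 19 tested genes higher, 0 lower and 16 not called, with a median log2 difference of 0.01. Of these 19, 7 had an unadjusted p under 0.05. DGAT2, which adds the last fatty acid to make triglyceride, measured 12.9 to 24.1 CPM in control (median 16.4) and 21.1 to 26.7 CPM in lens retinas (median 24.9). The lens retinas were less spread than the controls and 4 of 7 lay above every control. DGAT2 rose by 0.52 ± 0.11 (SE, limma adjusted p = 0.0144), a call that was lost without the 3 libraries that lack W-linked transcripts (limma adjusted p = 0.0577; 0.00112 to 0.0577 over its alternatives). AGPAT3, which acylates lysophosphatidic acid, measured 203 to 242 CPM in control and 239 to 276 CPM in lens retinas, with 6 of 7 above every control. It rose by 0.25 ± 0.043 (SE, limma adjusted p = 0.00225). ACSL3, an acyl-CoA synthetase of the endoplasmic reticulum and droplets, ranged over 106 to 121 CPM in control retinas and over 125 to 144 CPM in lens retinas, without overlap, a rise of 0.25 ± 0.042 (SE, limma adjusted p = 0.00204).

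Synthesis and desaturation of fatty acids had 1 of 19 genes higher, 0 lower and 18 not called, with a median log2 difference of -0.07. An unadjusted p under 0.05 was seen for 3 of the 19. The riser was ELOVL2, an elongase of very long polyunsaturated fatty acids on the route to docosahexaenoic acid, the main polyunsaturated fatty acid of outer segments. ELOVL2 measured 67 to 88.1 CPM in control (median 74.0) and 89.5 to 101 CPM in lens retinas (median 98.5), and the groups did not overlap. The rise was 0.38 ± 0.053 (SE, limma adjusted p = 4.16e-04).

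Fatty acid oxidation had 0 of 27 genes higher, 1 lower and 26 not called, with a median log2 difference of -0.03. Among the 27, 6 had an unadjusted p under 0.05. ECI2, an isomerase needed to oxidise unsaturated fatty acids, measured 8.75 to 10.7 CPM in control and 7.04 to 8.29 CPM in lens retinas, also without overlap. ECI2 fell by 0.24 ± 0.056 (SE, limma adjusted p = 0.0238). That call was lost with 3 of 4 other scalings (limma adjusted p = 0.0537 to 0.0606), without the 3 libraries that lack W-linked transcripts (0.0729), and without lens retina 47 (0.0523) or lens retina 48 (0.0583), within a range of 0.0174 to 0.0729.

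**Figure D4:**
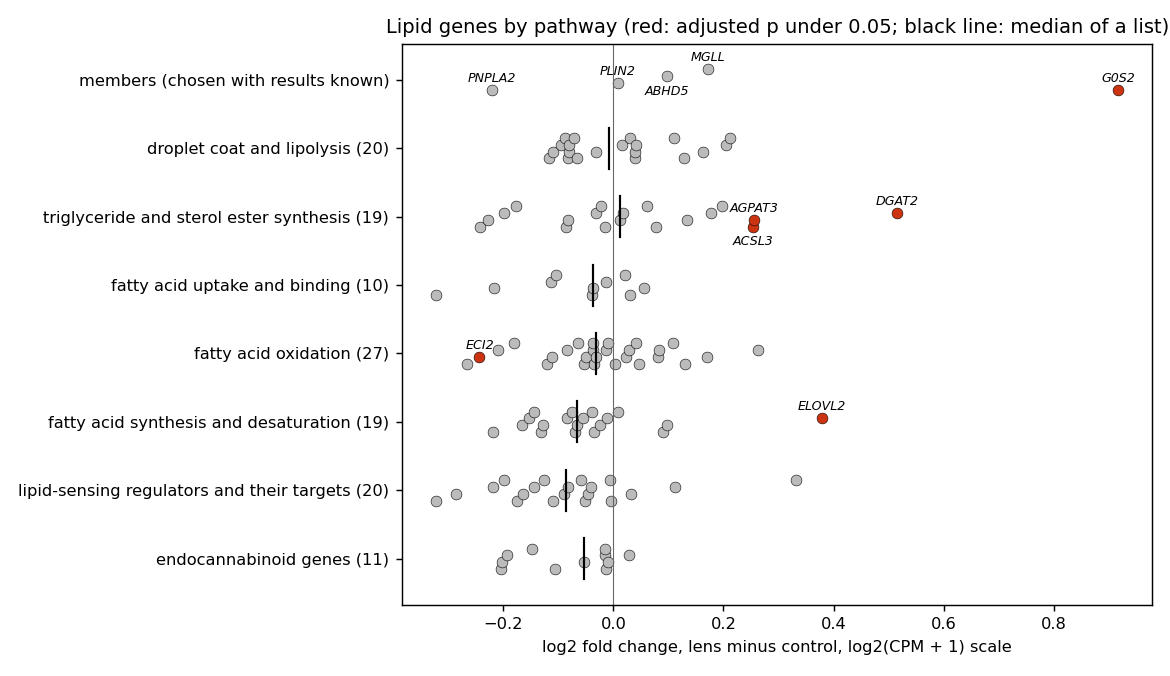
Log2 fold change (lens minus control) of each tested gene, by list, with the number tested in parentheses and a black line at the median of a list; red points passed an adjusted p of 0.05. G0S2 stands at 0.92, and the called pathway genes are DGAT2, AGPAT3, ACSL3 and ELOVL2 on the right and ECI2 on the left.

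The other lists held no called gene. For the droplet coat and lipolysis list, 0 of 20 were called as deposited, with a median log2 difference of -0.01, and 4 had an unadjusted p under 0.05. VPS13C, a lipid transfer protein of membrane contacts, had the smallest p of that list, with 0.16 ± 0.053 (SE, limma adjusted p = 0.127). It was called with quantile normalization (limma adjusted p = 0.0489) and without control retina 63 (0.0412), within a range of 0.0412 to 0.240. Relatives of the members were named after their values were seen. PNPLA3, the closest relative of PNPLA2, averaged 71.0 CPM ± 9.20 (SD, n = 7) in controls against 81.6 CPM ± 7.09 (SD, n = 7) under the lens (limma adjusted p = 0.189). LIPE, the hormone-sensitive lipase, had at most 11 reads in any library, PLIN1 at most 2 and PLIN5 at most 6.39, while PLIN4 averaged 0.639 CPM ± 0.242 (SD, n = 7) in controls against 0.677 CPM ± 0.198 (SD, n = 7) under the lens. None of these 4 passed the filter.

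Fatty acid uptake and binding had 0 of 10 called, with a median of -0.04 and 3 at an unadjusted p under 0.05. Its smallest p belonged to SLC27A1, a fatty acid transport protein, at -0.22 ± 0.076 (SE, limma adjusted p = 0.149). SLC27A1 was called with W-linked expression in the model (limma adjusted p = 0.0367) and without lens retina 55 (0.0343), within a range of 0.0343 to 0.284. Lipid-sensing regulators and their targets had 0 of 20 called, with a median of -0.09 and 6 at an unadjusted p under 0.05. The endocannabinoid list, which covers the other role of MGLL, had 0 of 11 called, with a median of -0.05 and 3 at an unadjusted p under 0.05. CNR1, the neuronal cannabinoid receptor, had -0.20 ± 0.064 (SE, limma adjusted p = 0.107).

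Markers of other cell types showed no call between the groups apart from the photoreceptor list given above. With 2.76% of all tested genes called, lists this short would hold few calls in any case. Summed markers of Müller glia were 1375 to 1814 CPM in control and 1348 to 1795 CPM in lens retinas, with 0 of 8 tested members called. Pigment epithelium markers summed to 18.8 to 23.6 and 18.3 to 25.4 CPM, with 0 of 4 called, and oligodendrocyte markers to 149 to 279 and 145 to 245 CPM, with 0 of 4 called. Macrophage and leukocyte markers summed to 7.13 to 10.7 and 8.28 to 12.1 CPM, with 0 of 3 called. Adipocyte markers summed to 2.09 to 3.74 and 2.44 to 3.62 CPM (0 of 2 called), fibroblast markers to 7.67 to 9.51 and 6.33 to 10.2 CPM (0 of 1), and the 4 listed red blood cell markers to at most 0.809 CPM. The ranges of control and lens retinas overlapped for every one of these sums. Most of the pigment epithelium sum came from OCA2 (mean 12.2 CPM in controls, 12.7 CPM under the lens). Most of the fibroblast sum came from KERA (mean 7.59 CPM in controls, 7.20 CPM under the lens). In the oligodendrocyte sum the largest part was MBP (mean 141 CPM in controls, 138 CPM under the lens), and MOG, OLIG2 and SOX10 did not pass the filter. Of 15 red blood cell markers chosen, only 4 were listed, and none of these is a globin gene. IFI27L2 made up most of their sum (mean 0.508 CPM in controls, 0.552 CPM under the lens).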

How the data were processed

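A single table of CPM was deposited, in which every entry carries an added 0.0001, as the values show. Libraries were stranded total RNA, per the labels' protocols, and STAR, Partek and the build GRCg6a are named, with no version, in the submitters' processing notes. How reads were counted, with which strand setting and gene filter, is not given in the sources used here. Low values were mostly multiples of 1 step, the commonest low value of a column, and 92.8% to 93.8% of them were whole reads within 0.02. Values were therefore not treated as counts. The most similar pair had a chi-square of 5.93 per gene, above counting error, so all 14 libraries were kept as separate samples.

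Groups came from the titles. Values were transformed as log2(CPM + 1), and the 11132 genes at or above 1 CPM in 7 or more samples were fitted in limma 3.58.1 under R 4.3.3, using an intensity trend and Benjamini-Hochberg adjustment at 0.05. Fold changes on this scale understate changes of low genes. The test was checked on simulated data. W-linked expression split libraries at the widest gap in the sum of 48 W-linked genes. Correlations used 100000 permutations within groups. Chromosome names came from RefSeq genes of assembly GRCg7b, in which 5 of 6 members matched by symbol. Positions are as deposited.

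The members, lists and tests were chosen with earlier results of these data known. Named genes were the members, the 3 smallest p in each direction among called genes of each pathway list (or the smallest p where none was called), the 5 genes most correlated with G0S2, and its neighbours. Not every gene taken by this rule is reported here. Alternatives covered the pseudocount, filter, scaling, prior, array weights, covariates and left-out libraries. Leaving out single libraries in the W-linked contrast, and correlations within 11 libraries, were added after seeing the data. Intervals and read floors cover counting or sample spread only. Figures used matplotlib version 3.10.9.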

Additional observations from a re-analysis of the deposited data

Results flagged for a closer look

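In 4 cases a control retina stood far from the other 6 of its group, out of 28 groups of 7 values examined for the members and named pathway genes. Chance gives about 1 in 20 groups, but these groups share the same 14 retinas, and an excess over chance was not tested. PLIN2 measured 13.9 CPM in control retina 65, against 8.73 to 10.1 CPM in the others, and that library is the control library without W-linked transcripts. ABHD5 measured 31.8 CPM in control retina 63, against 25.6 to 28.1 CPM. VPS13C measured 157 CPM in the same retina, against 128 to 137 CPM. ELOVL2 measured 88.1 CPM in control retina 64, against 67 to 75.7 CPM, and still lay below every lens retina.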

How the results depend on the processing

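G0S2 was chosen for its call in these data, so its values under other settings are a description. Its log2 difference was 0.71 (pseudocount 5) to 0.98 over 14 alternatives and 0.82 to 0.98 over the 14 fits that left out 1 library. No other member was called in any of these fits. PLIN2 kept its call in the W-linked contrast, at 0.37 to 0.54 over 7 alternatives and 0.47 to 0.53 with 1 library left out. Counts over all genes depended on scaling. As deposited, 102 of all tested genes were higher and 205 lower. With TMM factors 149 were higher and 120 lower, and with median-of-ratios factors 154 and 105. With quantile normalization 157 were higher and 122 lower, and with a common sum over listed genes 147 and 129. With 1 library left out, 83 to 110 were higher and 147 to 324 lower, the highest without lens 55. Of the pathway genes, 7 were higher with quantile normalization. The number lower was 0 with median-of-ratios factors, quantile normalization or a common sum, 2 with a filter of 10 CPM or array weights, 3 with W-linked expression as covariate, and 0 to 5 with 1 library left out (0 without lens 47 or lens 48, 3 without control 64, 5 without lens 55). The cause was not tested. Uncalled values changed sign for PLIN2 between lens and control (-0.058 to 0.083 with 1 library left out, -0.063 to 0.053 otherwise), for ABHD5 in the W-linked contrast (-0.0642 to 0.0016 with 1 library left out, above 0 without lens 48), for r of PNPLA2 and ABHD5 with a common sum (0.038) and for r of G0S2 and PLIN2 within 11 libraries (0.0031). A filter of 10 CPM removed PLIN2 and MGLL. PLIN3 failed the filter, and no fold of it is given under any setting. No paired analysis was possible because the groups share no replicate number.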
